A study of Mus musculus with 4 samples.

Results

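The Nduf genes encode the nuclear subunits of mitochondrial complex I and several of the proteins that put the complex together, and 46 of them were among the 15462 genes of the deposited normalized table. They were taken as every protein-coding gene whose mouse symbol begins with Nduf. Of these 46 genes, 36 encode subunits of complex I and 8 encode the assembly factors Ndufaf1 to Ndufaf8. The other two, Ndufa4 and Ndufa4l2, carry the name without being complex I subunits. The raw count table held 47 such genes among 37620, and the additional entry, a second gene named Ndufb8 (ENSMUSG00000091471), had 0 counts in 3 libraries and 2 in Cripto KO F/A. Ndufaf5, Ndufaf6, Ndufaf7 and Ndufaf8 appeared under older clone names and were recognised through their RefSeq symbols.

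The samples were R1 mouse embryonic stem cells (ESCs) of strain 129/Sv, wild type (WT) or Cripto knockout (Cripto KO), in 2 culture states. ESCs were kept in serum/LIF, and the cells labelled EpiSC (epiblast stem cells) had been moved to N2B27 medium with bFGF and 20 ng/ml Activin A (F/A) for 6 days. Total RNA of each of the 4 cultures was sequenced as 1 library, so every difference is between single cultures and no value carries a replicate error. The labels do not say which Cripto KO clone was sequenced.

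Complex I is the entry point of the respiratory chain. It oxidises NADH in its matrix arm, passes the electrons along iron-sulfur clusters to ubiquinone, and pumps protons through its membrane arm. Nuclear core subunits carry the matrix arm chemistry, mitochondrial genes encode the core of the membrane arm, accessory subunits surround both, and assembly factors bind intermediates without staying in the finished enzyme. Naive ESCs are known to respire, whereas primed cells such as EpiSCs are known to rely more on glycolysis. The comparisons therefore ask how these genes moved from serum/LIF to F/A in WT cells, and whether the movement differed in cells without Cripto.

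The library totals ran from 15230856 to 17315442 counts. Cripto itself (Tdgf1) had 18714 counts in WT serum/LIF, 1572 in WT F/A, 945 in Cripto KO serum/LIF and 86 in Cripto KO F/A. The Cripto KO F/A library stood apart in that 3 of its 18700 detected genes had an odd count, 0.0160% of them, against 53.1% to 53.6% in the other libraries. Its counts were divided by 2 wherever a counting interval was computed. The 6 naive ESC markers summed to 3907 cpm (counts scaled by the library total) in WT serum/LIF and 66.3 in WT F/A, and to 3534 and 62.0 in Cripto KO. The 8 primed markers went from 77.7 to 1167 cpm in WT and from 64.6 to 524 in Cripto KO. The 3 general pluripotency markers (Pou5f1, Nanog and Sox2) were far lower in F/A in both genotypes. They went from 2948 to 176 cpm in WT and from 2579 to 133 in Cripto KO.

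Promoter sequence is shown for the members that held a match to the binding sequence of NRF1, a regulator of nuclear genes for respiration, since its presence varied among them. RefSeq windows from 250 bases before to 50 bases after the transcription start (GRCm38.p6) were found for 40 of the 46 members. The letters GCGCATGCG, searched on both strands, occurred in 4 windows (10%), against 1.95% of all 27025 promoters and 3.86% of the promoters of genes in the normalized table. These 4 were Ndufa8 and Ndufa11, a pair of membrane arm subunits, and the assembly factors Ndufaf4 and Ndufaf5. The 120 bases before the start follow for the 3 genes whose match lies there, with the match in capitals. In Ndufa11 and Ndufaf4 the capitals are a single palindromic stretch that holds a match on each strand.
Ndufa11, chr17:56717642-56717761, plus strand: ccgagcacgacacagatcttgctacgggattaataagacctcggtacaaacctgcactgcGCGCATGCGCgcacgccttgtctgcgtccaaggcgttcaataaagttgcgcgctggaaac
Ndufa8, chr2:36049339-36049458, minus strand: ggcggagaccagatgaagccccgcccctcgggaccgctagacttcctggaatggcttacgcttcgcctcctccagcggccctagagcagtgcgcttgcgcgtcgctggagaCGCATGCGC
Ndufaf4, chr4:24897963-24898082, plus strand: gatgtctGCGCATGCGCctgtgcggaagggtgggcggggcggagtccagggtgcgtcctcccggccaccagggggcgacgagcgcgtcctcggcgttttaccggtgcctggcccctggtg

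The letters AAGATGGCG, which YY1 is known to bind and which contain the start codon ATG, occurred in 6 of the 40 windows (15%), against 1.64% of all promoters and 3.18% of those of genes in the normalized table. In all 6 they read forward and began 11 to 36 bases after the start. The 30 bases around each match are given. These 6 genes included Ndufs7 and Ndufa9, which were among the 4 subunits higher in Cripto KO F/A than in Cripto KO serum/LIF, as described further on. The windows of Ndufb7, Ndufa13 and the assembly factor Ndufaf1, which were also higher there, held no match. The other 4 genes with a match were lower in Cripto KO F/A (log2 -0.26 in Ndufaf8, -0.33 in Ndufc1, -0.46 in Ndufs6 and -0.22 in Ndufs4).
Ndufs7, chr10:80249463-80249492, plus strand: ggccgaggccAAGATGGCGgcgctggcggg
Ndufa9, chr6:126849096-126849125, minus strand: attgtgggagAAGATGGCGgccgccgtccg
Ndufaf8, chr11:120098934-120098963, plus strand: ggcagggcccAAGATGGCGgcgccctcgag
Ndufc1, chr3:51408914-51408943, minus strand: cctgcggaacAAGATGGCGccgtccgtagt
Ndufs6, chr13:73328433-73328462, minus strand: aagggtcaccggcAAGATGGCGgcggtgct
Ndufs4, chr13:114388045-114388074, minus strand: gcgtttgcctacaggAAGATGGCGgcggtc

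The ETS letters CCGGAAGT were found in 1 window (2.5%), that of Ndufs3, against 8.15% of the promoters of genes in the normalized table. The oestrogen-related receptor letters TCAAGGTCA were found in 0 of the 40 windows and in 0.341% of the latter promoters.

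Subunit transcripts were abundant in ESCs and formed the smallest share of the library in WT F/A. Summed over the 36 subunits, they made up 0.299% of all counts in WT serum/LIF (95% Wilson interval 0.296% to 0.301%) and 0.145% in WT F/A (0.143% to 0.147%). In Cripto KO they made up 0.259% in serum/LIF (0.257% to 0.262%) and 0.205% in F/A (0.202% to 0.208%). The 8 assembly factors together made up 0.0167%, 0.0111%, 0.0148% and 0.0130% in the same order. These intervals, like all others given here, cover counting error only. In such bulk RNA, fewer cells of a type and less RNA per cell cannot be told apart.

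Per length, the median subunit stood above the median assembly factor in every library. The median subunit had 94.4 cpm per kilobase of transcript in WT serum/LIF, with the range running from 20.5 for Ndufb7 to 346 for Ndufb8. The median assembly factor had 18.3, from 8.20 for Ndufaf7 to 39.5 for Ndufaf2. In WT F/A the medians of this level were 47.1 for subunits and 8.82 for assembly factors, in Cripto KO serum/LIF 82.1 and 16.8, and in Cripto KO F/A 69.9 and 12.5. The order of the libraries was thus the same for both classes, although their ranges overlapped.

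**Figure D1:**
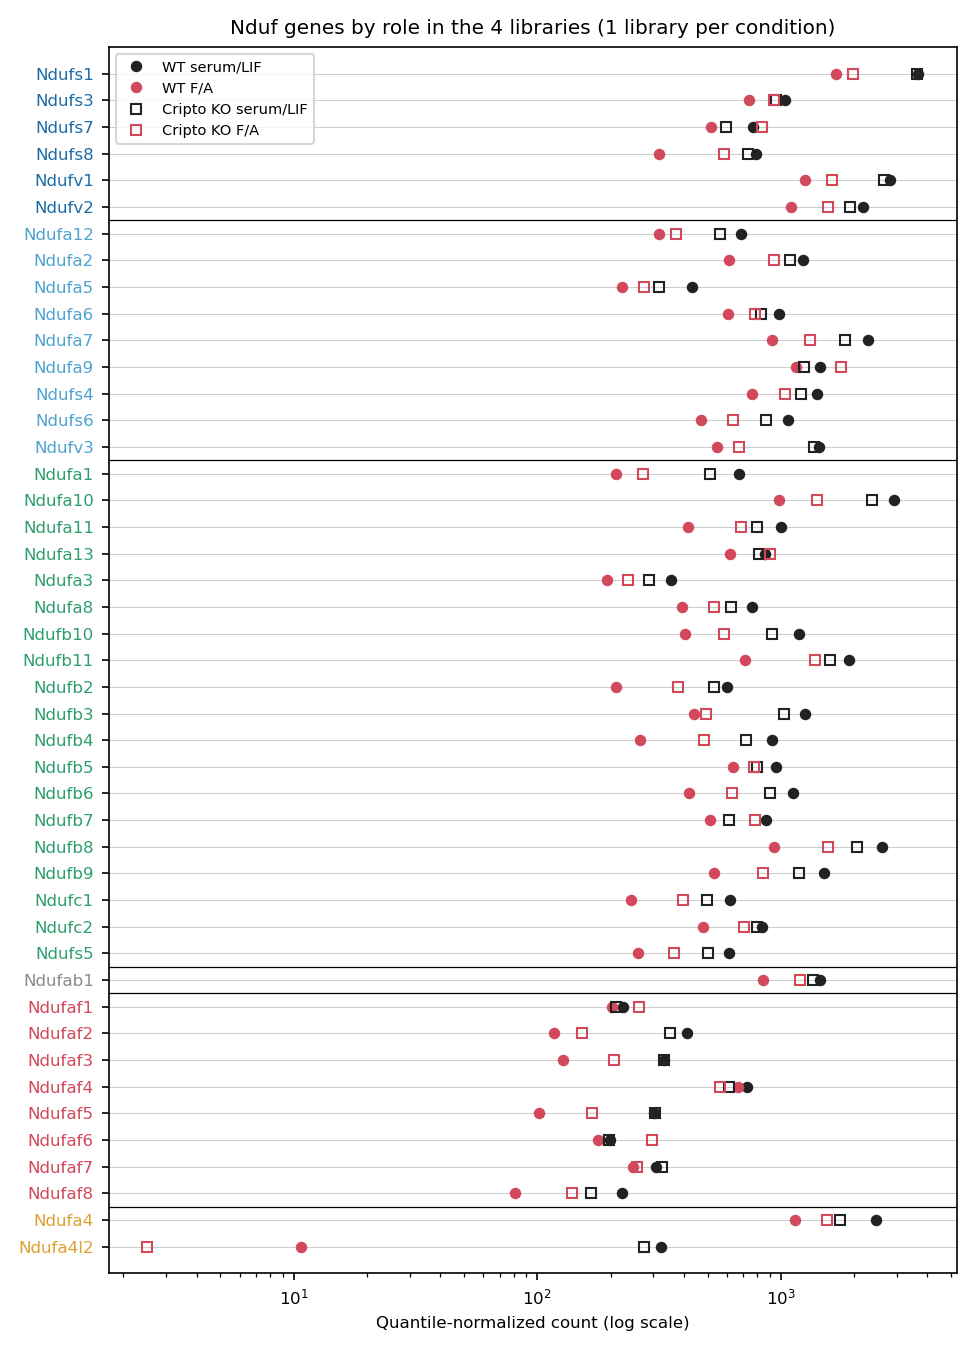
Quantile-normalized count (log axis) of 45 Nduf genes in each of the 4 libraries, with gene names coloured and separated by role in the order core, matrix arm accessory, membrane arm accessory, Ndufab1, assembly factors and the pair that are not complex I subunits. Each point is 1 library without an error bar. WT F/A lies below WT serum/LIF in all 45 genes drawn, and Cripto KO F/A lies above WT F/A in 43 of them.

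In the WT transition from serum/LIF to F/A, all 36 subunits were lower in F/A, by a median of 2.25-fold (log2 change -1.17). The median over all 15462 genes was -0.07, and 52.5% of all genes were lower in F/A by any amount. At least 2-fold lower were 28 of the 46 members, made up of 22 subunits, 4 assembly factors, Ndufa4 and Ndufa4l2, whereas 20.9% of all genes passed this fold. No member was higher in F/A. After subtraction of the length trend described further on, 36 or 28 of the 36 subunits were lower, depending on the length used. Log2 changes are of the quantile-normalized counts, and a gene was called changed at a fold of at least 2, since 1 library a condition allows no test.

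The core subunits, which carry the redox chemistry, had a median log2 change of -1.12 in the WT transition. Ndufs1 (ENSMUSG00000025968, chr1:63190170-63223396 on NCBIM37, as are all gene positions from here on), a subunit with several iron-sulfur clusters, had 3887 counts in WT serum/LIF, 1656 in WT F/A, 3661 in Cripto KO serum/LIF and 1908 in Cripto KO F/A. Both F/A cultures were thus well below both serum/LIF cultures, by log2 -1.12 in WT and -0.87 in Cripto KO.

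Ndufv1 (ENSMUSG00000037916, chr19:4007497-4012806), which binds NADH and the flavin, had 2945, 1237, 2693 and 1596 counts. Its partner Ndufv2 (ENSMUSG00000024099, chr17:66428135-66450899), an iron-sulfur protein, had 2290, 1082, 1945 and 1526 counts. In both, WT F/A was the lowest library and Cripto KO F/A lay between it and the serum/LIF cultures, with log2 changes of -1.16 and -0.99 in WT and -0.71 and -0.31 in Cripto KO. Ndufs8 (ENSMUSG00000059734, chr19:3908870-3912717), another iron-sulfur protein, had 823, 306, 713 and 590 counts. Its WT F/A culture was far below the others, at log2 -1.33 in WT against -0.33 in Cripto KO.

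Ndufs3 and Ndufs7, which lie where electrons reach ubiquinone, had the smallest WT changes of the core. Ndufs3 (ENSMUSG00000005510, chr2:90734791-90744984) had 1076, 726, 940 and 938 counts, so its level in Cripto KO was nearly the same in both media (log2 -0.03, against -0.49 in WT). Ndufs7 (ENSMUSG00000020153, chr10:79711866-79719539), which holds the last cluster before ubiquinone, had 800, 497, 582 and 836 counts. Its ratio of F/A to serum/LIF was log2 -0.57 in WT (interval -0.67 to -0.34) and 0.49 in Cripto KO (0.38 to 0.75), and its Cripto KO F/A culture was the highest of the 4. The intervals come from raw counts scaled by library totals and the changes from normalized values, so a change need not sit in the middle of its interval.

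Among accessory subunits, those of the membrane arm were lowered most in WT F/A. Their median was 2.66-fold lower than in serum/LIF (n = 19), with 13 past a 2-fold decrease, and the median of the matrix arm was 2.01-fold lower (n = 9), with 5 past it. The 2 groups overlapped, with log2 changes of -1.80 to -0.48 and -1.39 to -0.33. Ndufab1, the mitochondrial acyl carrier protein, had a log2 change of -0.78.

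The largest WT change of a subunit was that of Ndufb4 (ENSMUSG00000022820, chr16:37647256-37654539), a membrane arm subunit with 952 counts in WT serum/LIF, 258 in WT F/A, 704 in Cripto KO serum/LIF and 492 in Cripto KO F/A. It was 3.48-fold lower in WT F/A (log2 -1.80, interval -1.90 to -1.50) and at log2 -0.57 in the Cripto KO transition. RefSeq lists gene copies of Ndufb4, and how reads were divided among them was not tested. The smallest WT change of a subunit was that of Ndufa9 (ENSMUSG00000000399, chr6:126771881-126799162), which sits beside the ubiquinone site, with 1505, 1138, 1225 and 1712 counts. WT F/A was the lowest and Cripto KO F/A the highest of its libraries, and the WT change was log2 -0.33 (interval -0.33 to -0.11).

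The 8 Ndufaf assembly factors formed 2 sets in WT cells. Ndufaf2, Ndufaf5, Ndufaf8 and Ndufaf3 were at least 2-fold lower in F/A (log2 -1.81, -1.57, -1.45 and -1.37), whereas Ndufaf7, Ndufaf6, Ndufaf1 and Ndufaf4 were close to their serum/LIF level (-0.31, -0.16, -0.16 and -0.13), with no Ndufaf value between. Assembly factors without an Nduf name, described further on, mostly lay between these sets, from Ecsit (-1.22) to Timmdc1 (-0.52). Acad9 (-0.29) and Lyrm2 (0.96) did not. The median of the 8 Ndufaf genes was -0.84. Their counts were lower than those of the subunits, with a median of 150 in WT F/A against 505, so their intervals were wider. For Ndufaf1, Ndufaf4 and Ndufaf6 the interval included no change.

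Ndufaf2 (ENSMUSG00000068184, chr13:108842784-108948819), a late factor related to the subunit Ndufa12 that takes its place, had 436 counts in WT serum/LIF, 115 in WT F/A, 339 in Cripto KO serum/LIF and 152 in Cripto KO F/A. Both F/A cultures were low. Ndufa12 itself had 721, 306, 548 and 374 counts, at log2 -1.12 in WT and -0.61 in Cripto KO.

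Ndufaf5 (ENSMUSG00000027384, chr2:139996382-140030988), which modifies an arginine of Ndufs7, had 322, 99, 291 and 166 counts. Ndufaf8 (ENSMUSG00000078572, chr11:119960242-119962018), which stabilises Ndufaf5, had 238, 79, 158 and 138 counts. In both genes WT F/A was the lowest of the 4 libraries, but Cripto KO F/A was nearer its serum/LIF level in Ndufaf8 (log2 -0.26) than in Ndufaf5 (-0.86).

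Ndufaf3 and Ndufaf4, which are known to work as a pair on the module that carries the ubiquinone site, did not move alike. Ndufaf3 (ENSMUSG00000070283, chr9:108468197-108469673) had 349, 126, 320 and 206 counts. Ndufaf4 (ENSMUSG00000028261, chr4:24825230-24832148), whose promoter holds the palindromic NRF1 match printed above, had 764, 653, 600 and 574 counts. The WT F/A level of Ndufaf3 was thus 2.59-fold lower than in serum/LIF, and that of Ndufaf4 was 1.09-fold lower.

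Of the remaining factors, Ndufaf1 (ENSMUSG00000027305, chr2:119481182-119488563), which acts in the early membrane arm, had 241, 197, 199 and 262 counts. Ndufaf6 (ENSMUSG00000050323, chr4:10978192-11003352), which acts on the same module as Ndufaf3, had 213, 174, 186 and 298 counts. For both of these, Cripto KO F/A was the highest library. Ndufaf7 (ENSMUSG00000024082, chr17:79336475-79347392), a methyltransferase, had 327, 242, 315 and 256 counts and differed little between the genotypes in either medium.

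In the Cripto KO transition the subunits were lower in F/A by a median of 1.25-fold (log2 -0.33), against a median of -0.07 over all genes. Lower by any amount were 32 of the 36 subunits, where 52.8% of all genes were, and of the 32 the direction of Ndufs3, Ndufa6 and Ndufb5 turned under at least 1 other scaling of the libraries. The counting interval lay below no change in 21 of the 36 subunits, above it in 4 and included it in 11. With the length trend subtracted, as described further on, the median was -0.17 with either length, and 27 or 24 of the 36 were lower. At least 2-fold lower were 4 of the 46 members (Ndufb3, Ndufv3, Ndufaf2 and Ndufa4l2), where 19.4% of all genes were. Ndufb3, a small membrane arm subunit, went from 1011 to 502 counts (log2 -1.06), and Ndufv3, an accessory subunit next to Ndufv1, from 1357 to 672 (-1.03).

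The 4 subunits that were higher in Cripto KO F/A than in Cripto KO serum/LIF were Ndufa9 (log2 0.50), Ndufs7 (0.49), Ndufb7 (0.36) and Ndufa13 (0.15). Ndufb7, a membrane arm subunit, had 899 counts in WT serum/LIF, 493 in WT F/A, 599 in Cripto KO serum/LIF and 784 in Cripto KO F/A. Ndufa13, also known as Grim19, had 894, 599, 794 and 910 counts. In each of these 4 genes the counting interval lay below no change in WT and above it in Cripto KO. The number of subunits lower in WT and higher in Cripto KO F/A was 7 with scaling by library totals, TMM factors or size factors, and 9 or 5 with the length trend subtracted, of which the 5, found with the longest transcript, included Ndufb7 but not the other three. The assembly factors had a median of -0.30 in Cripto KO, with 6 lower and 2 higher (Ndufaf6 at 0.60 and Ndufaf1 at 0.32), and the sign of Ndufaf4 (-0.12) turned under another scaling.

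**Figure D2:**
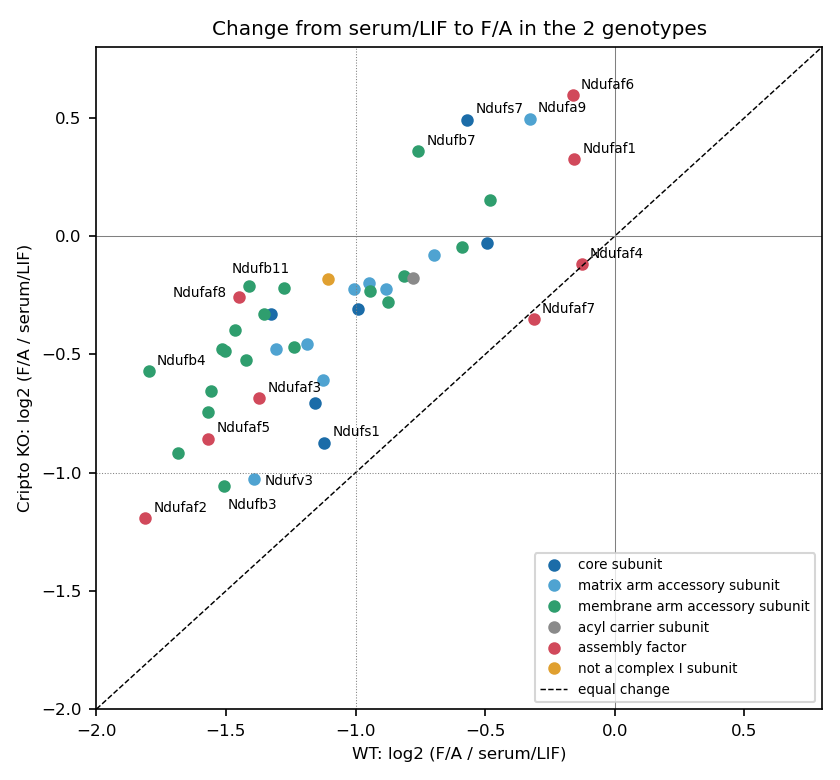
Log2 ratio of F/A to serum/LIF in WT (x axis) against the same ratio in Cripto KO (y axis) for 44 Nduf genes, coloured by role, with Ndufa4l2 beyond the axes. Dotted lines mark a 2-fold decrease and the dashed line equal change, above which all points but Ndufaf7 lie, Ndufaf4 lying almost on it at -0.13 and -0.12.

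Every subunit had a higher log2 change in Cripto KO than in WT, being less lowered in 32 and raised in place of lowered in 4. The difference of the transitions, the log2 change in Cripto KO minus that in WT, had a median of 0.77 over the subunits and of -0.00 over all genes. It was above 0 in 36 of 36 subunits, where 49.9% of all genes were above 0, and the counting interval lay above 0 in all 36. It was at least 1 in 10 of the 46 members, 9 of them subunits, where 7.69% of all genes reached this value. After subtraction of the length trend described further on, 36 or 30 of the 36 subunits were above 0, depending on the length used. A counting interval is not a replicate error, and whether a second pair of cultures would give this difference was not tested.

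By role, the median difference of the transitions was 0.90 in the membrane arm accessory subunits, 0.68 in the core and 0.73 in the matrix arm accessory subunits. Of the 9 subunits with a difference of at least 1, 8 belonged to the membrane arm and the other was Ndufs7 (1.06). The highest values were those of Ndufb4 (1.23, interval 0.94 to 1.52), Ndufb11 (1.20, 0.96 to 1.32) and Ndufaf8 (1.19, 0.71 to 1.81). Ndufb11 (ENSMUSG00000031059, X chromosome 20192452 to 20194745), an accessory subunit of the membrane arm, had 1984 counts in WT serum/LIF, 702 in WT F/A, 1594 in Cripto KO serum/LIF and 1370 in Cripto KO F/A. Its WT F/A culture was far below the other 3.

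Ndufs1, at 0.25 (interval 0.02 to 0.28), had the smallest difference of any subunit. The median over the assembly factors was 0.65, with 7 of 8 above 0 and 6 of 8 intervals above 0. Ndufaf4 (0.01, interval -0.23 to 0.28) and Ndufaf7 (-0.04, interval -0.38 to 0.38) were at 0 within counting error, and the sign of Ndufaf7 turned under another scaling.

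**Figure D3:**
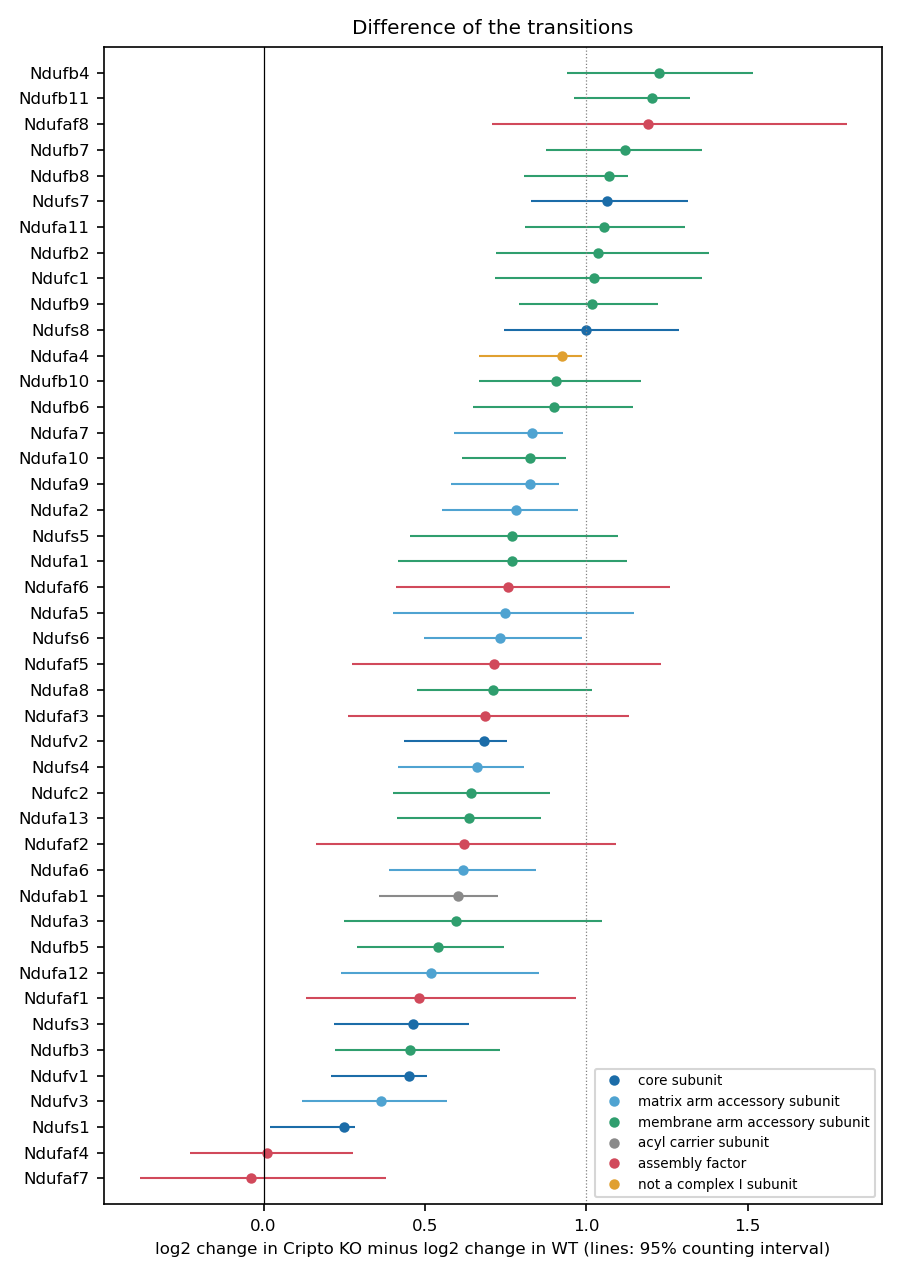
Log2 change in Cripto KO minus log2 change in WT for 44 Nduf genes ordered by value, coloured by role, with lines for the 95% counting interval, which is no replicate error. Ndufa4l2 (-1.87) is not drawn. Membrane arm subunits fill most of the places above 1, and Ndufaf4 and Ndufaf7 are the genes whose lines cross 0.

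Within F/A, all 36 subunits were higher in Cripto KO than in WT, by a median of log2 0.52, while the median of all genes was 0.00. The counting interval lay above no change in 32 of the 36 subunits and included it in 4. With the length trend subtracted, the subunit median was 0.32 or 0.12, and with the longest transcript 11 of the 36 subunits were lower. Lower in Cripto KO were 2 of the 46 members (Ndufaf4 and Ndufa4l2), where 48.8% of all genes were lower. No member was 2-fold higher, which 4.59% of all genes were. The highest members were Ndufb11 (0.95), Ndufs8 (0.89) and Ndufb4 (0.88). The lowest subunit was Ndufb3 at 0.17, with 440.5 and 494.75 normalized counts in WT and Cripto KO. Assembly factors had a median of 0.54, 7 of 8 being higher, Ndufaf7 the least so (0.05), and Ndufaf4 lower (-0.24, interval -0.44 to -0.03). This comparison shares the WT F/A and Cripto KO F/A libraries with the transitions, so its values are not independent of theirs.

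The F/A cultures also differed in cell markers. Primed markers summed to 1167 cpm in WT F/A and 524 in Cripto KO F/A. The 6 trophoblast markers summed to 94.5 and 255 cpm, the 5 fibroblast markers to 68.5 and 150, and the 4 primitive endoderm markers to 126 and 175. Naive markers were low in both, at 66.3 and 62.0 cpm, with Nr0b1 not above the detection limit. Of the trophoblast markers, Elf5 did not pass that limit in either culture. The part of these cells in the complex I values was not tested.

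Within serum/LIF, all 36 subunits were lower in Cripto KO than in WT, by a median of log2 -0.27, where 48.9% of all genes were lower and the median of all genes was 0.00. The counting interval included no change in 8 of the 36, and 4 of these were core subunits. With the length trend subtracted, the subunit median was -0.21 or -0.14, and 34 or 30 of the 36 subunits were lower. No subunit was 2-fold lower, which 2.75% of all genes were. The lowest members were Ndufb7 (-0.50), Ndufa4 (-0.48) and the matrix arm subunit Ndufa5 (-0.45), and the highest subunit was Ndufs1 (-0.02), whose sign turned under another scaling. Membrane arm subunits had a median of -0.31 and core subunits of -0.12. Assembly factors had a median of -0.06, with 5 lower and 3 higher, of which Ndufaf7 was at 0.09, and Ndufaf3 (0.00) and Ndufaf5 (0.01) changed sign under another scaling. The subunit direction in serum/LIF was thus opposite to that in F/A, and the difference of the transitions of a gene is its F/A value minus its serum/LIF value.

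Ndufa4 and Ndufa4l2 were described apart. Ndufa4 (ENSMUSG00000029632, chr6:11850373-11857446), now counted as a subunit of complex IV, had 2554 counts in WT serum/LIF, 1121 in WT F/A, 1774 in Cripto KO serum/LIF and 1520 in Cripto KO F/A. Its pattern was that of the subunits, at log2 -1.11 in WT and -0.18 in Cripto KO. Ndufa4l2 (ENSMUSG00000040280, chr10:126951995-126954208), known as a hypoxia-induced relative of Ndufa4, had 343, 10, 261 and 2 counts.

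Ndufa4l2 was seen mostly in serum/LIF. In WT F/A it stood at 0.0332 of its serum/LIF level (interval 0.0158 to 0.0617). In Cripto KO F/A it did not pass the detection limit of 6 counts and was at least 42.1-fold lower than in serum/LIF. Its difference of the transitions, -1.87, rests on these 2 counts and its interval includes 0. Shmt2 overlaps Ndufa4l2 on the opposite strand, and since the strand setting of the counting is not given in the sources used here, their reads may not be separable. The same holds for Ndufs1, Ndufs3, Ndufv2, Ndufa13, Ndufb5 and Ndufb11 among the subunits named here, each of which overlaps a gene on the opposite strand.

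Subunit transcripts are short. Their median annotated length was 646.5 nucleotides, from 350 in Ndufa3 to 2661 in Ndufs1 and Ndufa11, against 1124.5 for the assembly factors (528 in Ndufaf6 to 2303 in Ndufaf7) and 1838 for 9354 protein-coding genes with a mean of more than 200 normalized counts. Across these genes, short transcripts were lower in WT F/A relative to long ones. Spearman's rho of length with the log2 change was 0.25 in the WT transition, 0.08 in the Cripto KO transition, -0.35 for Cripto KO against WT in F/A and -0.36 for the difference of the transitions. With the longest transcript of each gene the trend was stronger, at 0.36, 0.10, -0.55 and -0.53 in the same order. Genes are not independent replicates, and the points share the same 4 libraries.

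Within the 36 subunits rho was 0.15, 0.15, 0.23 and 0.09 for the same comparisons, so length ordered them little. Among the 8 assembly factors it was -0.79 for the difference of the transitions (-0.48 with the longest transcript), with Ndufaf8 (780 nucleotides) at the top and Ndufaf7 at the bottom. Compared at like annotated length, subunit medians of the WT transition and of the difference of the transitions still differed from those of other genes. These other genes were protein-coding, were not Nduf members and had a mean of more than 200 normalized counts. Up to 500 nucleotides, the F/A medians of Cripto KO against WT hardly differed, at 0.34 for 6 subunits and 0.32 for 143 other genes. Which of its annotated transcripts a gene expressed in these cells was not tested, so the lengths may not be those of the RNA counted. For 500 to 750 nucleotides, 16 subunits had a median WT change of -1.21, against -0.37 for 1149 other genes of that length, and a difference of the transitions of 0.78 against 0.21. For more than 2000 annotated nucleotides, the 3 subunits Ndufs1, Ndufa11 and Ndufb7 had a median WT change of -1.12 against 0.15 for 4296 other genes. Their difference of the transitions was 1.06 against -0.17.

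With the running median of 501 protein-coding genes over transcript length subtracted, the subunit median became -0.75 in the WT transition, with 36 of 36 still below 0 and 8 rather than 22 at least 2-fold lower. The subunit median of the difference of the transitions became 0.47, with 36 of 36 above 0. When the longest transcript of each gene was used instead, a choice made after seeing the data, the medians were -0.52 and 0.24, with 28 of 36 below 0 and 30 of 36 above 0. The F/A median of Cripto KO against WT then came to 0.12, with 25 higher and 11 lower. The size of the subunit changes thus depended on which length was used, and a length dependence of the libraries and a change of short-transcript genes in the cells cannot be told apart.

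**Figure D4:**
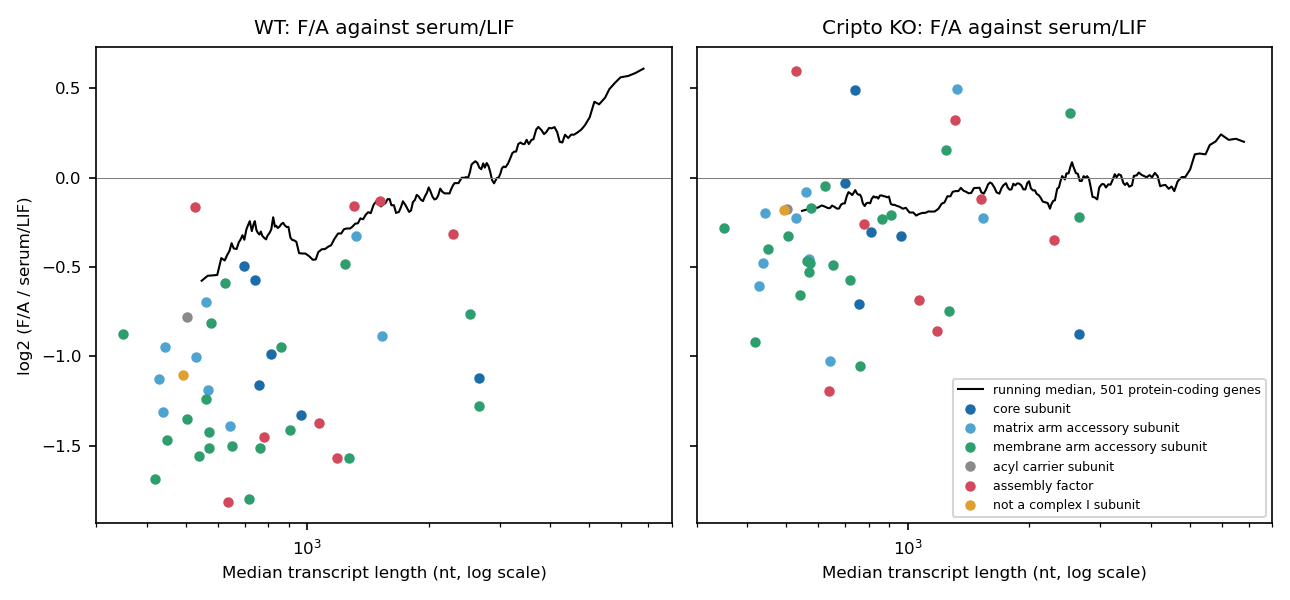
Log2 ratio of F/A to serum/LIF against the median length of a gene's transcripts (log axis, nucleotides) in WT (left) and Cripto KO (right) for 44 Nduf genes, coloured by role. The black line is the running median of 501 protein-coding genes, which climbs with length in WT and is flatter in Cripto KO, and all 35 subunits drawn lie below the line, or below its level continued to shorter lengths, in WT.

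The mitochondrially encoded subunits, which form the core of the membrane arm, were also lower in F/A, and their gap between the genotypes depended on the scaling. Of the 7 mt-Nd genes, 6 were in the normalized table, and mt-Nd4l had a single count in all libraries together. Their median log2 change was -0.51 in WT and -0.44 in Cripto KO, and the median difference of the transitions was 0.04, with 3 genes above 0 and 3 below. Scaled by library totals instead, a choice made after seeing the data, the medians were -0.65, -0.45 and 0.20, with 4 genes above 0 and 2 below in the difference, where the subunits had a median of 0.75. The counting interval of the difference lay above no change in 4 of the 6 genes and below it in 1. The highest mt-Nd difference by library totals was 0.44, and the lowest of a subunit was 0.15. In the normalized values, mt-Nd3 (0.52) and mt-Nd6 (0.48) lay within the range of the subunits. The lowest normalized change in WT was that of mt-Nd3 (-1.37), with 5615 counts in WT serum/LIF, 2025 in WT F/A, 4361 in Cripto KO serum/LIF and 2338 in Cripto KO F/A. The value of 0 for mt-Nd5 in WT, from 40222 and 27703 counts, arises because quantile normalization gives equal ranks equal values.

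Assembly factors without an Nduf name moved in the direction of the subunits but less far. Of 12 on the list, 11 were found, and 10 of these were lower in WT F/A, with a median of -0.72, where 52.5% of all genes were lower. At least 2-fold lower were 2 of the 11, which is not above the 20.9% of all genes that passed this fold. These were Ecsit (log2 -1.22), which works beside Ndufaf1, and Dmac1 (-1.13), which acts on the distal membrane arm. Lyrm2 alone was higher, going from 123 to 215 counts (0.96). The median of the 11 was -0.28 in Cripto KO, and that of the difference of the transitions was 0.42, with 8 above 0, where 49.9% of all genes were. Ppargc1b (Pgc-1b), a coactivator of mitochondrial genes, had 102, 110, 96 and 114 counts in the 4 libraries. Its ratio of Cripto KO F/A to WT F/A had a counting interval of 0.72 to 1.39, so these counts do not resolve a moderate change in either direction. The study reported higher Pgc-1b in Cripto KO F/A cells by qPCR.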

How the data were processed

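RNA of 4 cultures (1 library each) had been sequenced as paired-end reads. Per the labels and the study's methods, the authors aligned reads to mm9 (NCBIM37) with TopHat2 2.0.13, counted them per gene with HTSeq 0.6.1p1 and deposited whole-number counts. The strand option is not given in the sources used here. The authors also deposited a signal made from these counts by full quantile normalization over the 4 libraries and removal of genes of low expression (1 cpm). Recomputing the normalization gave the deposited values with a largest difference of 0.

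Symbols, coordinates and transcript lengths came from the annotation of Ensembl 65 on the same build, which named 15424 of the 15462 genes, with RefSeq symbols for 4 members under older names. Ndufb1 was not analysed here. Log2 changes used the deposited signal with 0 replaced by 0.5. The difference of the transitions is the change in Cripto KO minus that in WT. Intervals are 95% Clopper-Pearson intervals computed on the raw counts and the library totals (Cripto KO F/A counts divided by 2), and a normal approximation on the log scale for the difference of the transitions. The detection limit was 3 counts, and 6 in Cripto KO F/A. Depth was 15230856 to 17315442 counts, so genes with few counts have wide intervals. A call was a fold of at least 2, and no p-value was computed. Sequences came from RefSeq windows on GRCm38.p6, another build than that of the counts.

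The members, gene groups, markers and motifs were chosen with earlier results of these data known. Named are the core subunits, every assembly factor, both genes that are not subunits, the 3 lowest and 3 highest members of each comparison, members at 10 or fewer counts, and accessory subunits whose sequence is shown. Other subunits, such as Ndufa12, Ndufa13 and Ndufv3, were named after their values were seen. Values of 1 member enter the counts and medians but are not reported here or drawn. Copies of 7 members are annotated or listed in RefSeq (Ndufa12, Ndufs6, Ndufa11, Ndufb4, Ndufb8, Ndufs5 and Ndufab1), 12 members overlap another gene, and 10 overlap a gene on the opposite strand.

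Alternatives were scaling by library totals, TMM factors of edgeR 4.0.16 and size factors of DESeq2 1.42.0 (R 4.3.3), halved Cripto KO F/A counts before normalization, a pseudocount of 5, a minimum mean raw count of 50, no filter, names of the build's annotation alone, members without copies, Ndufa4 and Ndufa4l2 counted as subunits, a fold of 1.5, and subtraction of a running median over transcript length. Python 3.11.15, numpy 2.4.6, scipy 1.17.1, pandas 2.3.3 and matplotlib 3.10.9 were used. The calculations were tested on simulated data.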

Additional observations from a re-analysis of the deposited data

Results flagged for a closer look

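In 4 subunits the change from serum/LIF to F/A had opposite directions in WT and in Cripto KO, with both counting intervals apart from no change. The log2 change in Cripto KO minus that in WT was 1.12 in Ndufb7, 1.06 in Ndufs7, 0.83 in Ndufa9 and 0.64 in Ndufa13. There was 1 library per condition, so the difference was not tested. The count of 4 became 7 with scaling by library totals, TMM factors or size factors, 9 with the trend over transcript length subtracted and 5 with that over the longest transcript, the last including Ndufb7 alone of these 4.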

How the results depend on the processing

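Moves of the medians were set against the counting error of a typical single gene of the group. The counting error of a median itself was not computed, so smaller moves are not shown to lie within it. Of 115 alternative values of the medians, 1 changed sign, the assembly factor median within serum/LIF (-0.06, and 0.00 with the longest transcript). Against the single-gene error, 106 moved by less and 9 by more. All 9 came from subtracting the running median over transcript length, which itself moved the median WT change of all genes from -0.07 to 0.03 (to 0.06 with the longest transcript). With the median transcript length, the subunit medians were -0.75 in the WT transition, 0.32 for Cripto KO against WT in F/A and 0.47 for the difference of the transitions. With the longest transcript, they were -0.52, 0.12 and 0.24, and -0.14 within serum/LIF, while the assembly factor medians were -0.35 in the WT transition and 0.14 for the difference of the transitions. The members past a 2-fold change in the WT transition numbered 12 and 6 under these adjustments in place of 28, those in the Cripto KO transition 2 and 1 in place of 4, and those with a difference of the transitions of at least 1 numbered 3 and 2 in place of 10. TMM factors left 2 in the Cripto KO transition. A fold of 1.5 was passed by 12 members in the Cripto KO transition, 18 in F/A and 35 in the difference of the transitions. No share of all genes is given for a fold of 1.5, for TMM factors or after the length adjustments. Whether the member counts under these settings exceed such a share was not tested. No paired analysis was possible because each condition has 1 library and the labels carry no replicate numbers. For the same reason no replicate could be left out, and the depth limits mainly the assembly factors, which had between 79 and 764 counts.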
